A study of Drosophila melanogaster with 4 samples.

Results

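The genes described here encode the enzymes that make the chitin of the insect cuticle and the proteins that organise, bind or modify it. The list held 10 genes: mmy, kkv, knk, rtv, serp, verm, Gasp, obst-A, obst-B and obst-E. Their array spots were found by symbol, current or older, and a spot was used where it had a value on at least 1 array of each biological replicate. In the annotation used, 9 of the genes had a named spot, 12 spots in all. Of these, 9 spots met the rule, which left 7 of the 10 genes, among 5752 genes measured in the same way. For kkv the only named spot had no value on any array, for knk the only value was -0.31 on 1 array of replicate 1, and no spot was named for rtv. These 3 genes are not in the counts below.

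RNA came from whole Drosophila melanogaster embryos of 0 to 24 h, from flies kept at 25 °C. Mutant embryos were w1118 and carried dsap18 117, a null allele made by mobilising a P-element, over the deficiency Df(3R)sbd45, which removes the gene for dSAP18. Control embryos had the same allele and deficiency in w1118 and in addition a dsap18-HA rescue transgene, so what separated the groups was the transgene. Mutant and control RNA were hybridised together on 4 two-colour arrays, which make 2 biological replicates from separate extractions, each measured with the dyes in both orientations. The control label of 1 array of replicate 1, with the mutant in Cy3, places the transgene on chromosome 2, whereas the other 3 arrays have it on X, the dye swap of the same RNA among them.

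Chitin is a polymer of N-acetylglucosamine. Epidermal and tracheal cells make its activated precursor, UDP-N-acetylglucosamine, in the cytoplasm, and a chitin synthase in the apical membrane links the sugar and passes the chain out. Outside the cell, deacetylases modify the fibres and chitin-binding proteins pack them into the layers of the larval cuticle and into a transient cable in the lumen of the growing tracheal tubes. In fly embryos that lack genes of this pathway the tracheal tubes and the cuticle are misshapen.

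Values are the authors' log ratios, taken as log2 and as mutant over control. The direction is not stated with the values; mutant over control is the likely one, because the series text has the mutant as the sample. If it is the other way, every sign below turns and the sizes and counts stay. Arrays of opposite dye correlated positively over genes (r = 0.83 in replicate 1 and 0.92 in replicate 2), so the ratios were taken as already turned to a common direction. Between replicates, r was 0.738 and 0.735 for arrays of the same dye and 0.676 for those of opposite dye. Unturned ratios with a dye effect on each gene could correlate positively too, so the turning was assumed and not tested. Spots with a value made up 39.8% to 48.6% of the 16416 spots on an array, and replicate 2 had ratios 1.75 times as wide as replicate 1 (SD over genes 0.48 against 0.28). No level of a transcript can be read from a ratio, so the tissue label could not be checked by level, and no spot was named for the targeted gene, Bin1 (dSAP18). A gene was called at a limma adjusted p under 0.05 over all 5752 genes. Errors are SDs of the 2 replicate means.

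All 7 measured chitin genes had a negative mean log2 ratio, that is, a lower level in the mutant in the likely direction, and 6 of them were called (mmy, serp, verm, Gasp, obst-A and obst-B). None was called with a positive ratio, and none of the 7 had a positive ratio at an unadjusted limma p under 0.05 either. Over all genes tested, 11.6% were called negative and 11.2% positive. The median of the 7 genes was -0.64 (-0.52 in replicate 1 and -0.90 in replicate 2), beside 0.02 over all genes tested (0.00 and 0.02). Averaged over their spots, the 7 genes had 26 values on single arrays, and all 26 were below 0. Of all genes tested, 30.5% had a negative ratio on every array with a value. The calls rest on a variance that limma pools over genes: tested gene by gene without it, none of the 7 and no other gene passed, and 0 of the 7 and 461 of all genes had an unadjusted p under 0.05. In RNA of whole embryos, fewer epidermal or tracheal cells and less chitin gene RNA per cell cannot be told apart. Nor can either be told apart from a different mix of embryo ages within the 0 to 24 h. The plot of values by array shows each gene.

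**Figure D1:**
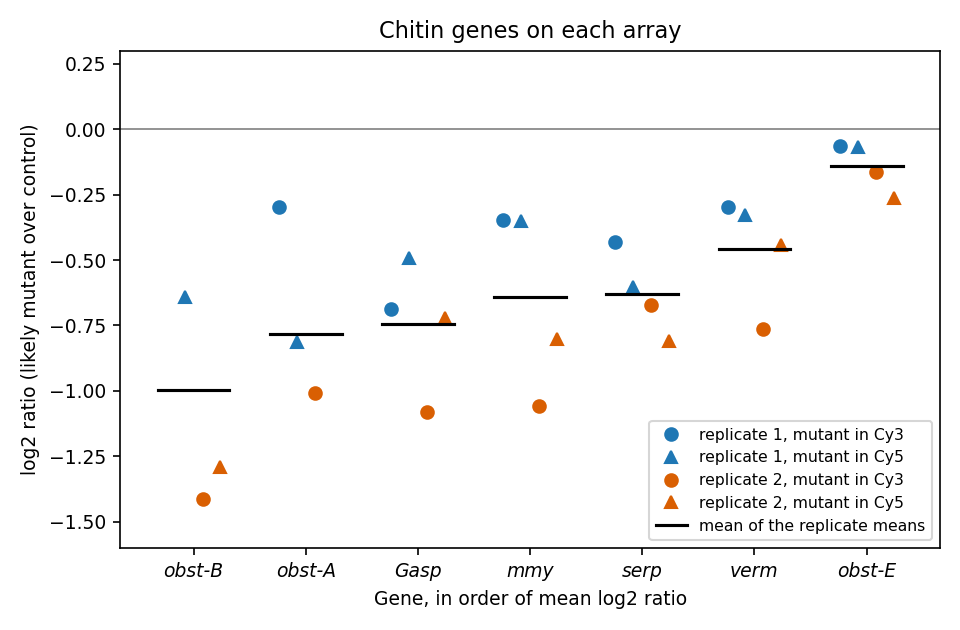
Log2 ratio (vertical axis, likely mutant over control) of the 7 measured chitin genes on each array, with replicate 1 in blue, replicate 2 in orange, circles for the mutant in Cy3 and triangles for the mutant in Cy5. The black line is the mean of the 2 replicate means. Every point lies below 0, from -1.41 for obst-B to -0.06 for obst-E, and the orange points of a gene lie mostly below its blue ones.

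The precursor is represented by mmy (NCBI gene 33903, chromosome arm 2L), which encodes the UDP-N-acetylglucosamine pyrophosphorylase at the last step before chitin synthesis. Its log2 ratios were -0.35 and -0.35 in replicate 1 and -1.06 and -0.80 in replicate 2, in each pair with the mutant in Cy3 given before the mutant in Cy5. The swapped arrays of replicate 1 gave nearly the same value, and both arrays of replicate 2 lay lower. The mean was -0.64 ± 0.41 (n = 2), 1.56-fold, with a limma adjusted p = 0.0028. In replicate 2 its ratio was 2.66 times that in replicate 1, more than the difference in width between the replicates. Ranked among all genes from the most negative ratio, mmy stood at percentile 8.64 in replicate 1 and 3.72 in replicate 2.

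The 2 chitin deacetylase genes, serp and verm, lie next to each other on chromosome arm 3L in the RefSeq gene table. In the fly trachea the proteins they encode are secreted into the lumen and limit how long the tubes grow. The first, serp (NCBI gene 40150), had -0.43 and -0.60 in replicate 1 and -0.67 and -0.81 in replicate 2. It had the smallest SD of the 6 called genes, with a mean of -0.63 ± 0.16 (n = 2), 1.55-fold, and a limma adjusted p = 0.0027. Its rank was in fact lower in replicate 1 (percentile 2.8) than in replicate 2 (percentile 7.01), although its ratio was larger in replicate 2.

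For verm (NCBI gene 40149), 2 of 3 named spots met the rule. Spot 14869 read -0.41 and -0.22 in replicate 1 and -0.83 and -0.44 in replicate 2. Spot 12133 read -0.19 and -0.43 in replicate 1 and -0.70 in replicate 2, where the array with the mutant in Cy5 had no value. Their mean ratios were -0.47 and -0.50, so the spots differed by 0.03 on the log2 scale, against a median of 0.17 over the 171 genes with several usable spots. The gene mean was -0.46 ± 0.21 (n = 2), 1.37-fold, with a limma adjusted p = 0.029. This call was lost on the arrays with the mutant in Cy5 alone (-0.39, limma adjusted p = 0.063) and without the array whose label places the transgene on chromosome 2 (-0.47, limma adjusted p = 0.056), an alternative chosen after seeing the data. In ratio, serp was below verm by 0.20 in replicate 1 and by 0.14 in replicate 2 (serp minus verm -0.17 ± 0.05 on the log2 scale), which was not tested. On the array of replicate 2 with the mutant in Cy3 the order was turned, with serp above verm by 0.09.

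Gasp, obst-A, obst-B and obst-E belong to the obstructor family of secreted proteins that bind chitin through cysteine-rich peritrophin-A domains. Gasp (NCBI gene 40745, arm 3R), the antigen of a classical antibody against the tracheal lumen, had -0.69 and -0.49 in replicate 1 and -1.08 and -0.72 in replicate 2. The ratio was clearly below 0 on all 4 arrays, and Gasp stood at percentile 1.6 in replicate 1 and 4.31 in replicate 2. The mean was -0.74 ± 0.22 (n = 2), 1.68-fold (limma adjusted p = 4.61e-04). In both replicates the ratio was more negative with the mutant in Cy3, by 0.20 and 0.36.

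In obst-A (NCBI gene 33022, X chromosome), whose protein scaffolds the chitin matrix in the larval cuticle, the arrays of replicate 1 read -0.30 and -0.81, and the single array of replicate 2 read -1.01. The 2 swapped arrays of replicate 1 differed by 0.52, a wider gap than in 99.1% of the genes with both values, for which the median gap was 0.10. Replicate 2 had a value only with the mutant in Cy3, so a dye effect does not cancel there. The mean was -0.78 ± 0.32 (n = 2), 1.72-fold (limma adjusted p = 2.84e-04). Peritrophin-A, the gene next to obst-A in the RefSeq table, which lists it as obst-D too, had -0.55 ± 0.23 (limma adjusted p = 0.0089).

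The most negative of the 7 genes was obst-B (NCBI gene 34336, arm 2L). It had -0.64 in replicate 1, where only the array with the mutant in Cy5 gave a value, and -1.41 and -1.29 in replicate 2. Both replicates placed it near the bottom of all genes, at percentile 1.1 in replicate 1 and 0.83 in replicate 2. The mean was -0.996 ± 0.50 (n = 2), 1.99-fold (limma adjusted p = 9.01e-06), and a dye effect does not cancel in replicate 1. The fit gave the single array of replicate 1 the same weight as a mean of 2, as it did for obst-A in replicate 2. None of the 7 genes passed 2-fold on the mean of the replicates.

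In the same family, obst-E (NCBI gene 33806, arm 2L) was not called, and whether it differed from the called genes was not tested. Its protein shapes the larval cuticle, and with it the form of the pupal case. Spot 3790 read -0.18 and -0.21 in replicate 1 and -0.78 and -0.46 in replicate 2, with a mean of -0.41 ± 0.30 (limma adjusted p = 0.066 over 6021 spots). Spot 12597 read 0.05 and 0.07 in replicate 1 and 0.45 and -0.07 in replicate 2, with a mean of 0.13 ± 0.09 (limma adjusted p = 0.64). The spots thus stood on opposite sides of 0, 0.53 apart on the log2 scale. Of the 171 genes with several usable spots, 55, obst-E included, had spots on opposite sides of 0, and in 24 the spots lay further apart than these. The annotation gives both spots the same accessions, and which of them measures the transcript better was not tested. Their average was -0.14 ± 0.10 (n = 2), with a limma adjusted p = 0.57 and a 95% interval of -0.45 to 0.18. Averaging therefore puts all 4 arrays of obst-E below 0. Taken singly, 8 of the 9 spots of the 7 genes were below 0 on every array with a value.

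**Figure D2:**
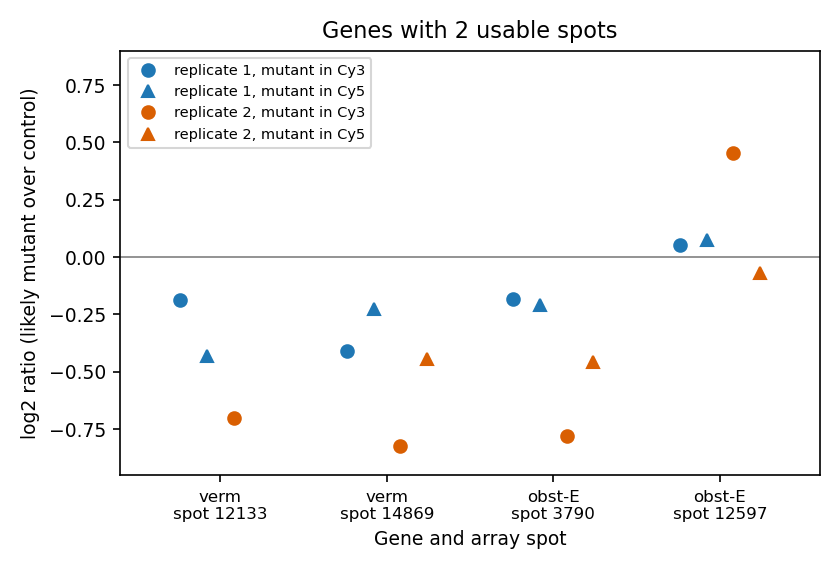
Log2 ratio (vertical axis, likely mutant over control) of each usable spot of verm and obst-E on each array, with replicate 1 in blue, replicate 2 in orange, circles for the mutant in Cy3 and triangles for the mutant in Cy5. The 2 spots of verm overlap below 0, whereas spot 12597 of obst-E lies above 0 on all arrays but that of replicate 2 with the mutant in Cy5 (-0.07), and spot 3790 lies below 0 on all 4.

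In order of mean ratio, obst-B was followed by obst-A, Gasp, mmy, serp, verm and obst-E. The middle of this order was not resolved. Gasp minus obst-A was 0.04 ± 0.10, mmy minus Gasp was 0.11 ± 0.19 and serp minus mmy was 0.01 ± 0.25 on the log2 scale, each smaller than its SD and of opposite sign in the 2 replicates. At the ends, the replicate means of neighbours kept their order, with obst-A above obst-B by 0.21 ± 0.18, verm above serp by 0.17 ± 0.05 and obst-E above verm by 0.32 ± 0.10 (n = 2 for each). The place of obst-E rests on the average of its 2 spots. Spot 3790 alone had -0.19 in replicate 1 and -0.62 in replicate 2, against -0.31 and -0.60 for verm. With that spot the order of verm and obst-E was turned in replicate 2. For obst-A and obst-B the order in replicate 1 rests on an array on which obst-B had no value. On the only array of replicate 1 that measured both it was turned, with obst-A at -0.81 and obst-B at -0.64. These differences are given as values, without a test. An exact two-sided permutation test that flips their signs could not give a p below 0.5 with 2 replicates. By role, and with the spots of obst-E averaged, the chitin-binding genes held both ends of the order. The precursor gene and the deacetylase genes lay between them.

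All 7 ratios were larger in size in replicate 2, by 1.44 times for serp to 3.25 times for obst-E. Ratios were wider there over all genes too (SD 0.48 against 0.28), but the share of genes with a larger ratio in replicate 2 was not counted. With each array scaled to the same median absolute deviation, serp was at -0.65 in replicate 1 and -0.62 in replicate 2, Gasp at -0.75 and -0.74, and obst-A at -0.71 and -0.77. After that scaling serp was no longer lower in replicate 2, and Gasp and obst-A were at nearly the same value in both. By the same measure the other 4 genes remained lower in replicate 2. In replicates 1 and 2, mmy was at -0.44 and -0.76, obst-B at -0.82 and -1.12, verm at -0.40 and -0.49, and obst-E at -0.08 and -0.18.

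**Figure D3:**
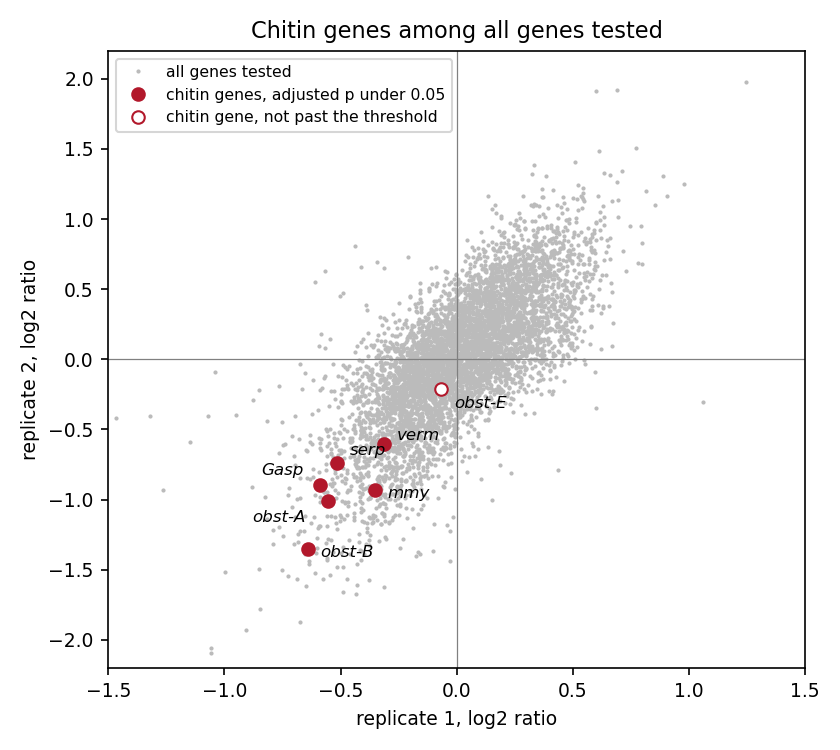
Mean log2 ratio in replicate 1 (horizontal axis) and replicate 2 (vertical axis) of all 5752 genes tested, in grey, with the 7 chitin genes in red, filled where the adjusted p was under 0.05; 7 genes lie outside the axes. The 6 called genes lie at the lower left of the cloud, and obst-E, open, lies within it.

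Other genes of the pathway, outside the 10, were taken from lists chosen by function, with earlier results of these data known. Of 22 such genes measured, 11 were called negative, none positive and 11 were not called (none was positive at an unadjusted limma p under 0.05 either). Their median was -0.41 on the log2 scale, with -0.30 over replicate 1 alone and -0.50 over replicate 2 alone. Of the 22, 15 were negative on every array with a value, against 30.5% of all genes tested. Over all genes tested, 11.6% were called negative and 11.2% positive.

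Upstream of mmy, 6 genes of sugar supply and hexosamine synthesis were measured. Gnpnat, the glucosamine-phosphate N-acetyltransferase gene, was called at -0.46 ± 0.14 (limma adjusted p = 0.029). Treh, which encodes trehalase, was called at -0.43 ± 0.08 (limma adjusted p = 0.039), with no value on the array of replicate 2 with the mutant in Cy5. The other 4 were not called. Pgi, for phosphoglucose isomerase, was at -0.39 ± 0.17, Gfat2, for the glutamine:fructose-6-phosphate aminotransferase that commits sugar to the pathway, at -0.10 ± 0.19, nst, for phosphoacetylglucosamine mutase, at 0.05 ± 0.33, and the hexokinase gene Hex-A at 0.10 ± 0.02. Of the 7 measured genes that lead to the precursor, mmy included, 3 were called. Without the array whose label places the transgene on chromosome 2, mmy kept its call, while those of Gnpnat (-0.44, limma adjusted p = 0.068) and Treh (-0.45, limma adjusted p = 0.060) were lost at ratios about as large. Calls over all genes were 857 of 5329 in that setting, against 1313 of 5752 with all arrays. Treh was not called with the mutant in Cy3 alone either (-0.42, limma adjusted p = 0.11), nor Gnpnat with it in Cy5 alone (-0.39, limma adjusted p = 0.058).

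At the synthase step exp was the sole measured gene. It encodes a membrane-associated protein that, together with the related reb, is required for kkv to deposit chitin in the fly. Its log2 ratios were -0.48 and -0.56 in replicate 1 and -1.15 and -0.83 in replicate 2, so that all 4 arrays lay well below 0. The mean was -0.75 ± 0.33 (n = 2), 1.69-fold (limma adjusted p = 4.51e-04). Of the deacetylases, Cda4 was measured beside serp and verm. It had -0.44 ± 0.22 (limma adjusted p = 0.035), so all 3 measured deacetylase genes were called negative. Without the array named above only serp was, with Cda4 at a similar ratio (-0.42, limma adjusted p = 0.085). Cda4 was not called with the mutant in Cy3 alone either (-0.47, limma adjusted p = 0.062).

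Beside 11.6% over all genes tested, 3 of 9 further chitin-binding genes were called negative. They were teq (-0.92 ± 0.66, limma adjusted p = 4.74e-05), a secreted protease gene with chitin-binding domains, Peritrophin-15a (-0.55 ± 0.21, limma adjusted p = 0.0085) and Peritrophin-A. The other 6 lay between -0.34 (Muc26B) and 0.06 (Mur29B). They included obst-H (-0.19 ± 0.04) and obst-J (-0.17 ± 0.07), which, like obst-E, are obstructor genes that were not called. Of 7 measured obstructor genes, Gasp and Peritrophin-A included, 4 were called and 3 were not. Peritrophin-15a was the only called gene of this list whose ratio was smaller in size in replicate 2 (-0.40) than in replicate 1 (-0.70).

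Chitinases, which break chitin down when the cuticle is remodelled, had negative ratios too. Of 5 measured, 4 were called, against 11.6% called negative over all genes tested. Cht9 read -0.59 and -0.72 in replicate 1 and -1.43 and -1.35 in replicate 2, and its mean of -1.02 ± 0.52 (n = 2, limma adjusted p = 6.30e-06) was lower than that of any of the 7 chitin genes above. Cht7 was at -0.73 ± 0.60, Cht2 at -0.56 ± 0.29 and Cht5 at -0.52 ± 0.09, the last with no value on the array of replicate 2 with the mutant in Cy5. Their limma adjusted p-values ran from 9.71e-04 to 0.012. Cht4 was at -0.01 ± 0.12 and was not called.

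Genes of the epidermis and its barrier, sclerotisation and pigmentation were measured for 7 list members. Of these, 5 were called negative and none positive, against 11.6% and 11.2% over all genes tested. The median of the 7 was -0.45, with -0.26 in replicate 1 and -0.60 in replicate 2. The called genes were amd (-0.68 ± 0.32), for an enzyme of cuticle catechol metabolism, y (-0.50 ± 0.37), for black pigment, ple (-0.48 ± 0.24), for tyrosine hydroxylase, the zinc finger gene drm (-0.45 ± 0.18) and the laccase gene stw (-0.43 ± 0.23). The limma adjusted p-values of these 5 ran from 0.0014 to 0.041. Without the array whose label places the transgene on chromosome 2 the calls of y (-0.46, limma adjusted p = 0.077), drm (-0.45, limma adjusted p = 0.064) and stw (-0.46, limma adjusted p = 0.061) were lost at ratios about as large. That array has no value for drm, so its ratio is the same in both settings and its call moved with the fit over all genes. The array of replicate 2 with the mutant in Cy3 has none for ple. Not called were yellow-d (-0.19 ± 0.08) and ovo (0.11 ± 0.03), whose products include the epidermal regulator Shavenbaby. The barrier regulator gene grh and Ddc, for dopa decarboxylase, had no spot that met the rule.

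**Figure D4:**
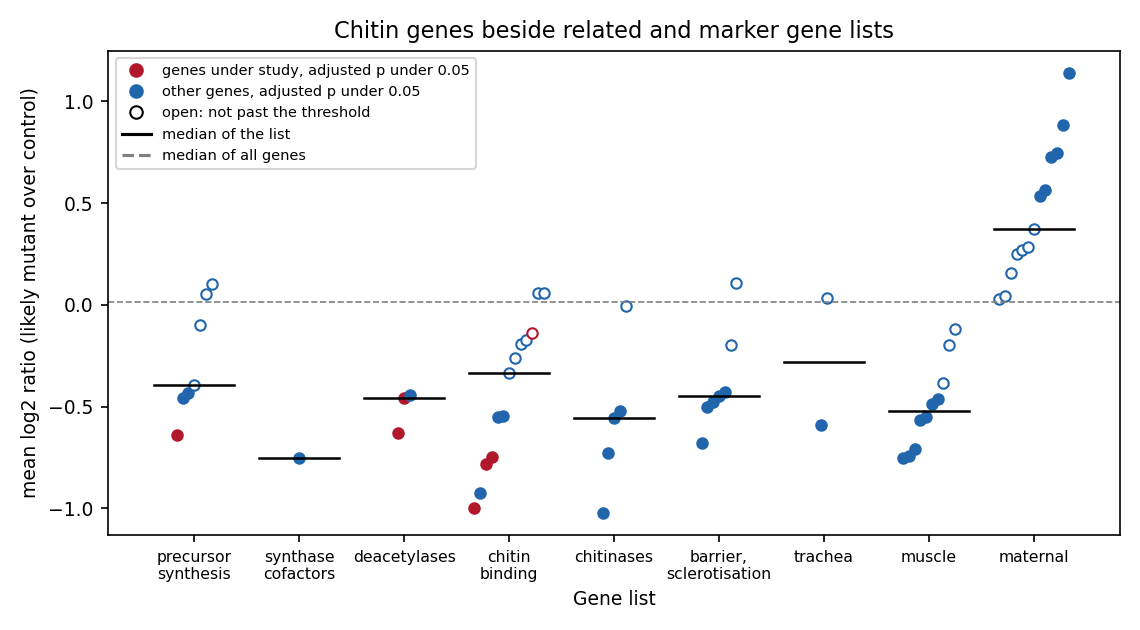
Mean log2 ratio (vertical axis, likely mutant over control) of each measured gene in 9 lists, with the chitin genes under study in red and other genes in blue, filled where the adjusted p was under 0.05 and open otherwise. Black lines are list medians and the dashed line is the median of all genes, 0.02; the chitin, barrier and muscle lists lie mostly below it and the maternal list above.

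Markers of other tissues and of early embryos moved in these samples as well. Over all genes tested, 11.6% were called negative and 11.2% positive. Of 10 measured muscle genes 7 were called negative and none positive (median -0.52, with -0.22 in replicate 1 and -0.79 in replicate 2), led by Tm2 (-0.75 ± 0.28), TpnC73F (-0.74 ± 0.57) and Mlc2 (-0.71 ± 0.55). Of 13 maternal transcripts 6 were called positive and none negative (median 0.37, with 0.36 in replicate 1 and 0.55 in replicate 2), led by mael (1.14 ± 0.52), plu (0.89 ± 0.39) and twe (0.74 ± 0.04). Of the tracheal markers 2 were measured, uif, for a protein of the apical membrane, at -0.59 ± 0.39 (limma adjusted p = 0.0054) and peb at 0.03 ± 0.38, which was not called. For peb each replicate had 1 value. It was 0.30 in replicate 1 with the mutant in Cy5 and -0.23 in replicate 2 with the mutant in Cy3. A dye effect cancels within neither replicate of peb. The part of these shifts in the ratios of the chitin genes was not tested.

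The genes whose 4 log ratios lay closest to the mean profile of the chitin genes were ReepB, bib, CG15043, Rhp and RapGAP1. That profile was -0.36 and -0.37 in replicate 1 and -0.75 and -0.61 in replicate 2, over the 5 chitin genes with values on all 4 arrays. It leaves out obst-A and obst-B, the chitin genes with the lowest means, and includes obst-E, which was not called. The root mean square difference from the profile was 0.03 for ReepB and bib, 0.04 for CG15043 and 0.05 for Rhp and RapGAP1. It is on the log2 scale and out of 4313 genes compared.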

How the data were processed

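The deposited values are the authors' log ratios of mutant and control RNA (1.5 µg per sample) on 4 arrays, taken as log2 since the submitters' processing notes name limma. Their log base, direction, normalization and filter for empty spots are not stated in these notes or the labels, and intensities were not used.

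Of 16416 spots, 13163 had 1 symbol in the platform annotation. Gene IDs updated 12532 of these to Release 6 RefSeq symbols, accessions 120, and 511 kept the old symbol. No array build is given, so no coordinates are printed.

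Spots with a value on at least 1 array of each replicate were averaged per gene and array, then over swapped arrays, which are technical repeats (n = 2). A replicate with a value on only 1 array weighed as much in the fit as one with 2. No sign was changed. Means of 5752 genes were compared with 0 by limma 3.58.1 (lmFit, then eBayes, in R 4.3.3; two-sided p adjusted by Benjamini-Hochberg; 62.9 prior and 1 residual degrees of freedom). Extractions were separate, but whether embryo collections were is unknown, so p-values speak for these samples only. With these degrees of freedom they rest mostly on the variance pooled over genes, and little on a gene's own spread between replicates.

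The genes and lists were chosen with earlier results of these data known. Named were the 10 genes, pathway and barrier genes past the threshold (all measured ones in lists with at most 5), up to 3 per marker list and the 5 nearest the mean profile. Pgi, Gfat2, nst, Hex-A, Muc26B, Mur29B, obst-H, obst-J, yellow-d, ovo and peb were named after their values were seen. Alternatives varied the genes tested, dye, swapped arrays, spots, scaling, moderation and replicates.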

Additional observations from a re-analysis of the deposited data

How the results depend on the processing

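The 6 negative calls among 7 chitin genes were also 6 with the replicate as a random block, with independent arrays, a dye term, single spots, median centring or equal array widths. They were 4 of 5 genes with values on all 4 arrays, 5 of 6 with the mutant in Cy3 alone, 4 of 6 with it in Cy5 alone and 5 of 7 without the array labelled with the transgene on chromosome 2, an alternative added after seeing the data. No positive call arose in any of these. The median ran from -0.59 to -0.67 in them, and from -0.90 to -0.52 without replicate 1 or 2. Over all genes, 1313 calls became 2460 with independent arrays, 857 without that array and 0 without moderation. Without moderation 0 chitin, pathway, barrier, muscle and maternal genes passed, the ratios being unchanged (mmy -0.64, serp -0.63, verm -0.46, Gasp -0.74, obst-A -0.78, obst-B -0.996, each with an adjusted p = 0.56). The verm call was lost with the mutant in Cy5 alone (-0.39) and without the array named above (-0.47).

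The 2 precursor calls beside mmy became 1 on all 4 arrays or with Cy3 alone and 0 with Cy5 alone (median -0.0341) or without that array. The 5 barrier calls became 3 on all 4 arrays and 2 with Cy3 alone or without that array. The median of the other chitin-binding genes was -0.31 with Cy3 alone and between -0.22 and -0.16 with single replicates. The maternal median was 0.54 on all 4 arrays, 0.51 without that array, and between 0.36 and 0.55 with single replicates. The difference serp minus verm was -0.0208 with Cy3 and -0.32 with Cy5 alone. Gasp minus obst-A was -0.23 with Cy3 alone and 0.22 without that array. Among genes that were not called, the sign turned with Cy5 alone for Hex-A (-0.0341), nst (-0.0121), Mur29B (-0.0150) and Cht4 (0.0626), without that array for Mur29B (-0.0148) and Cht4 (0.0127), and with equal array widths for Cht4 (0.0172). It also turned without replicate 1 for nst (-0.18) and peb (-0.23), and without replicate 2 for Gfat2 (0.03), Mur29B (-0.15) and Cht4 (0.08). Unless the setting itself leaves out arrays or genes, the cause was not tested. The test of the ratios against 0 is itself paired, since each ratio sets mutant against control on the same array.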
